A study of Mus musculus with 8 samples.

Results

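A set of 10 genes of the hepatic stellate cell and of the matrix that it lays down were followed in mouse liver: Reln, Lrat, Des, Ecm1, Pdgfrb, Col1a1, Col1a2, Col3a1, Dcn and Timp1. They were chosen by name, as markers and matrix products known for this cell, with earlier results of these data known. All 10 were found among the 55401 gene identifiers of the count table. The livers came from NOD scid gamma (NSG) mice, an immunodeficient strain, and every host carried a subcutaneous xenograft of a human colorectal cancer cell line. In 4 libraries the line was Colo201, which the series describes as high in FGF19, and in 4 it was HCT116, described as low in FGF19. The question was how the host liver differs between them, and no library came from a mouse without a tumour. In both lines the male and the female label cover 2 libraries each, and titles carry a number with L or R, so that each of the 4 combinations of line and label is 1 title number. The order of libraries in all lists of values below is 2L, 2R, 4L, 4R for Colo201 and 1L, 1R, 3L, 3R for HCT116, with 1 and 2 labelled male. The labels give no ages, and FGF19 itself was not changed in either line. Whether the L and R libraries with the same number are from separate animals is not stated, so p-values describe spread between libraries, part of which may be technical.

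Stellate cells lie between hepatocytes and the sinusoidal endothelium, store vitamin A as retinyl esters, and in chronic injury become contractile, collagen-producing myofibroblasts. Lrat makes the retinyl esters, Reln encodes the secreted glycoprotein reelin, Des the intermediate filament desmin, and Pdgfrb the receptor through which PDGF drives their growth. Col1a1 and Col1a2 encode the chains of type I collagen, Col3a1 that of type III, Dcn a proteoglycan that binds collagen fibrils, and Timp1 an inhibitor of matrix metalloproteinases. Ecm1 encodes a secreted matrix protein that hepatocytes also make in mouse liver, so it marks stellate cells less closely than Lrat or Reln do.

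The libraries held 61347603 to 65457482 estimated counts, so depth was nearly even. Values below are CPM, counts relative to the library total, scaled by TMM, which corrects for differences in composition. Liver identity was clear, with Alb at 7.51 to 12.02% of the counts. Under the male label Xist ranged over 253 to 365.6 CPM and the Y-linked Ddx3y was at 0. Under the female label Xist ranged over 0.275 to 0.805 CPM and Ddx3y over 37.56 to 63.45 CPM. The sex labels thus ran opposite to the X- and Y-linked genes in all 8 libraries and are used here only as labels. Colo201 4R stood apart in epithelial genes, with Krt19 at 25.9 CPM and Epcam at 11.99 CPM where the other libraries held at most 2.17 and 1.42 CPM.

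Between the lines, 1 of the stellate cell and matrix genes passed the test. Reln rose in hosts of Colo201, and of the 9 genes with enough counts for the test it alone passed an adjusted p of 0.05. Des was higher and Dcn lower without passing, and the collagens Col1a1, Col1a2 and Col3a1 overlapped between the lines. That 1 of 9 members passed stands beside 4.78% of all 17669 genes tested (2.48% higher and 2.3% lower). At an unadjusted p under 0.05 edgeR counted 3 of the 9, Reln, Des and Dcn, beside 21.7% of all tested genes, and the members' median log2 fold change was 0.16 against 0.00215 over all tested genes. The groups of 4 libraries did not overlap for 2 of the 10, Reln and Des, against 12.3% of all tested genes (6.27% with Colo201 above and 6.04% with Colo201 below). In bulk liver a change in the number of cells of a type and a change in RNA per cell cannot be told apart.

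**Figure D1:**
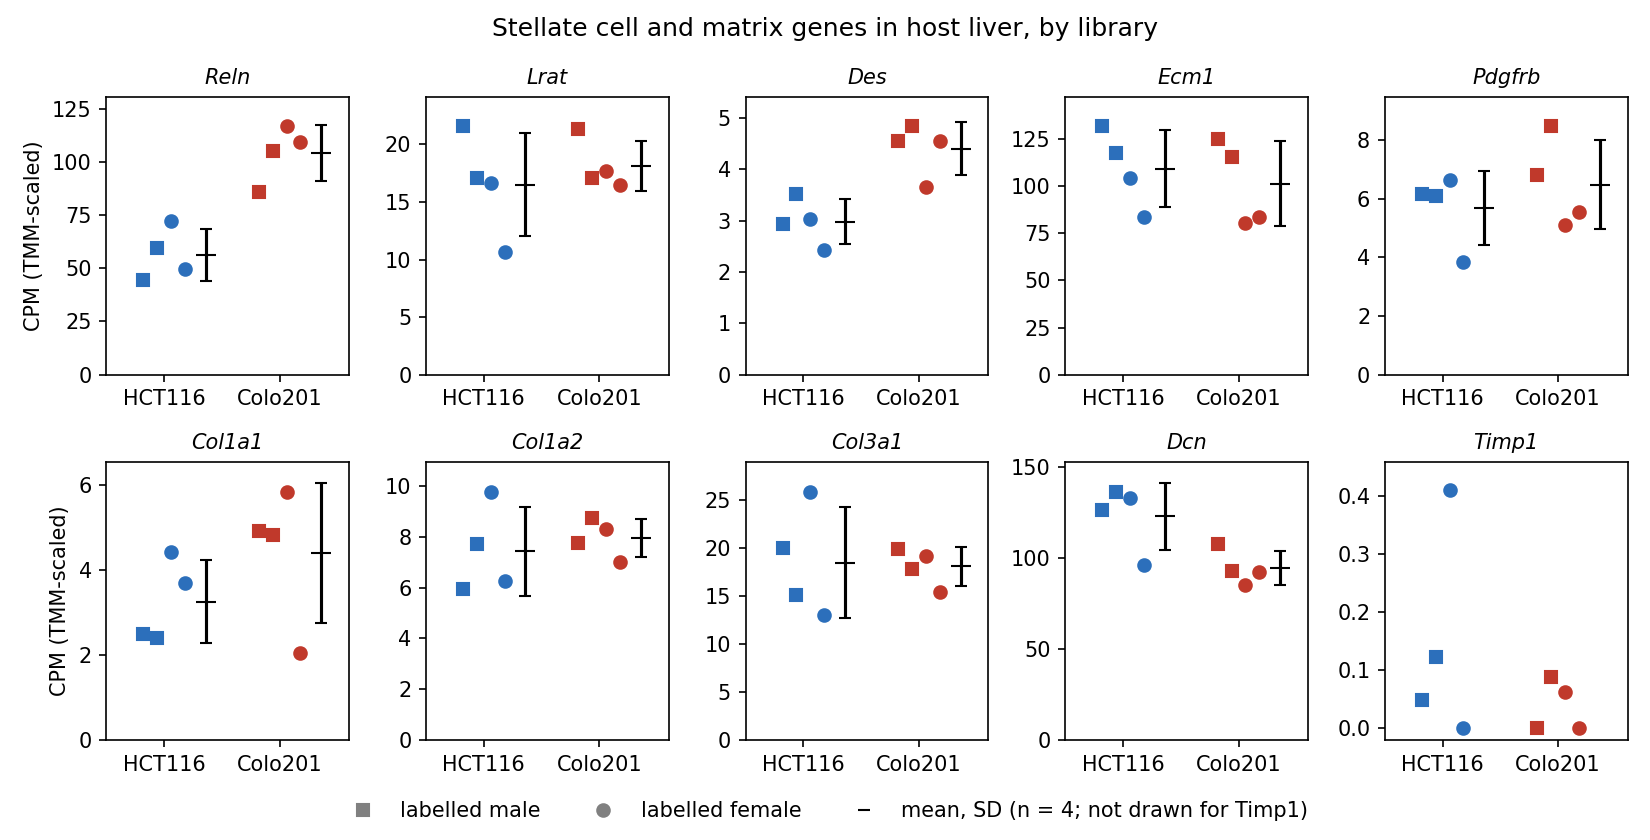
Level of each of the 10 genes in every library, in TMM-scaled CPM on linear axes that differ between panels, with squares for libraries labelled male, circles for those labelled female, and the mean with its SD over 4 libraries. Reln stood at 86.0 to 117 CPM in hosts of Colo201, above the 44.4 to 72.1 CPM of hosts of HCT116, and Des also separated, while the other 8 genes overlapped.

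Reln (ENSMUSG00000042453), on chromosome 5 from 21884454 to 22344702 in GRCm38, stood at 86.0, 104.9, 117 and 109.5 CPM in hosts of Colo201 and at 44.4, 59.4, 72.1 and 49.6 CPM in hosts of HCT116. Every Colo201 library lay above every HCT116 library, and the highest HCT116 value came closest to the lowest Colo201 value. The means were 104.3 ± 13.1 and 56.4 ± 12.2 CPM (SD, n = 4 each). Reln was thus 1.85-fold higher, 0.89 on the log2 scale (SE 0.14, 95% interval 0.56 to 1.22, edgeR adjusted p = 0.0184). The call was lost without Colo201 4L (0.86, edgeR adjusted p = 0.0550) and without HCT116 1L (0.81, edgeR adjusted p = 0.0579). It was also lost when L and R of each title number were summed (0.88, edgeR adjusted p = 0.102). It stood without Colo201 4R, the library with high Krt19 (0.90, edgeR adjusted p = 0.0349). The gene body of Reln overlaps 7 annotated genes, among them the antisense transcripts Gm10475 and Gm16110, and the strand setting of the counting is not given in the sources used here.

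Under each sex label Reln was higher in hosts of Colo201. The log2 fold change was 0.88 (SE 0.22, 95% interval 0.37 to 1.39) in libraries labelled male and 0.89 (SE 0.22, 95% interval 0.39 to 1.40) in those labelled female. Each of these contrasts sets 1 title number against another, and neither passed with 2 libraries against 2 (edgeR adjusted p = 0.190 and 0.144). The difference between these values was 0.01 on the log2 scale (95% interval -0.70 to 0.73, edgeR adjusted p = 1). None of the 9 tested members passed under either label, where 0.232% (0.102% higher, 0.13% lower) and 0.492% (0.26% higher, 0.232% lower) of all tested genes did. limma voom also called 0 under either label. At an unadjusted p under 0.05 edgeR counted 1 of them under the male label and 2 under the female label. The interaction of line and label called 0 of the 9 and 0.0283% of all tested genes (0.017% higher, 0.0113% lower). At an unadjusted p under 0.05 the interaction counted 0 of the 9. The share of all tested genes at that p was not counted within the labels or for the interaction. Nothing is therefore read from these unadjusted counts.

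**Figure D2:**
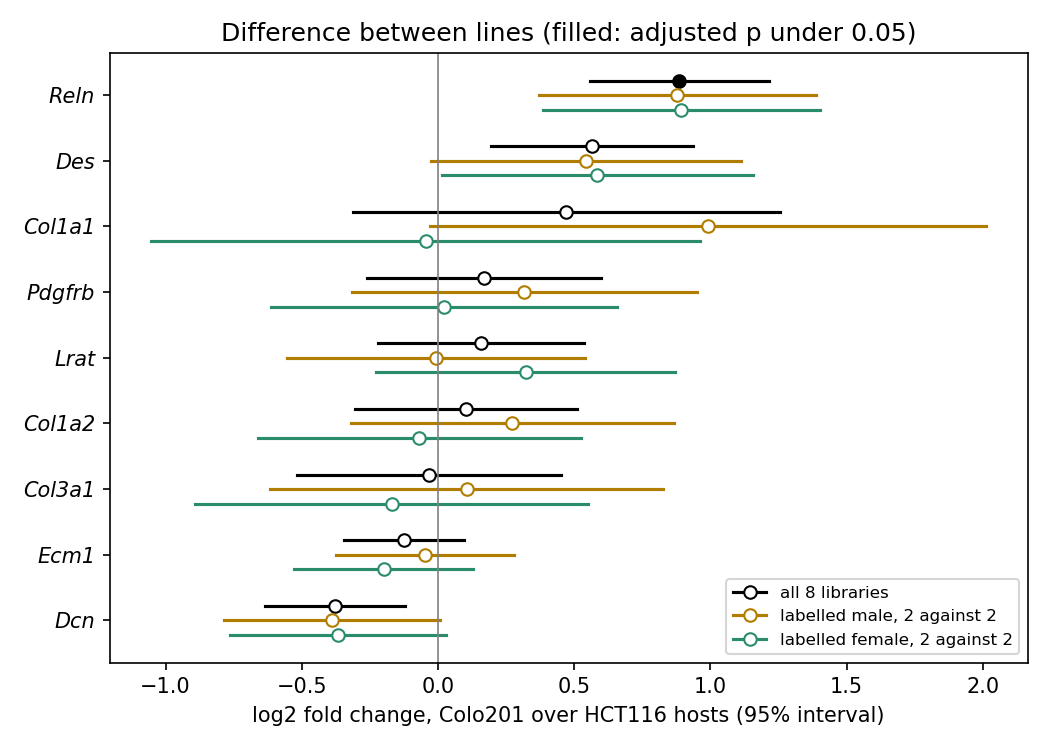
Log2 fold change of the 9 tested genes, Colo201 over HCT116 hosts, as a point with its 95% interval, over all 8 libraries and within each sex label, with filled points for an adjusted p under 0.05. Reln is the only filled point, at 0.89, and its values within the labels (0.88 and 0.89) lie on it, whereas those of Col1a1 lie at 0.99 and -0.04.

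Des, Lrat, Pdgfrb and Ecm1 did not pass between the lines in edgeR. Des, on chromosome 1 from 75360329 to 75368579, stood at 4.55, 4.84, 3.66 and 4.55 CPM in hosts of Colo201 and at 2.93, 3.51, 3.04 and 2.44 CPM in hosts of HCT116. The groups did not overlap, by the narrow margin between Colo201 4L and HCT116 1R. Its log2 fold change was 0.56 (SE 0.16, 95% interval 0.19 to 0.93) and missed the threshold (edgeR adjusted p = 0.0888). DESeq2 called it (adjusted p = 0.0341).

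Lrat, on chromosome 3 from 82892579 to 82903973, held 21.3, 17.1, 17.7 and 16.4 CPM in the Colo201 libraries and 21.6, 17.0, 16.6 and 10.7 CPM in those of HCT116. The groups overlapped, and the lowest value, that of HCT116 3R, stood apart from the other 7. The log2 fold change was 0.16 (95% interval -0.22 to 0.53, edgeR adjusted p = 0.639), and over the libraries left out in turn it ran from 0.01 (without HCT116 3R) to 0.26 (without HCT116 1L). Pdgfrb stood at 5.09 to 8.46 CPM in hosts of Colo201 and 3.84 to 6.62 CPM in hosts of HCT116, with a log2 fold change of 0.17 (95% interval -0.26 to 0.60, edgeR adjusted p = 0.656). Over the libraries left out in turn it ran from 0.06 (without HCT116 3R) to 0.38 (without HCT116 3L). The ratio of Reln to Lrat, each in FPKM, the authors' unit per length with 1 length per gene, was 0.91 to 1.5 in hosts of Colo201 and 0.463 to 1.05 in hosts of HCT116. The ratio of Reln to Dcn was 0.196 to 0.336 against 0.0862 to 0.133, with no overlap. Reln was higher and Dcn lower in these same libraries, so this separation restates their values and adds no test.

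Ecm1 passed between the sex labels and not between the lines. On chromosome 3 from 95734147 to 95739569, it stood at 125.3, 115.7, 80.3 and 83.7 CPM in hosts of Colo201 and at 131.8, 117, 104.5 and 83.9 CPM in hosts of HCT116. The 4 libraries labelled male, at 115.7 to 131.8 CPM, lay above the 4 labelled female, at 80.3 to 104.5 CPM. Between the labels the log2 fold change was 0.48 (SE 0.10, 95% interval 0.26 to 0.70, edgeR adjusted p = 0.0318). Ecm1 was the 1 member of 9 that passed this comparison, where 4.02% of all tested genes did (1.96% higher and 2.06% lower under the male label), and 9.64% had labels that did not overlap. The call held without HCT116 3L (0.56, edgeR adjusted p = 0.0259). It was lost without any other single library, with values of 0.44 to 0.53 and edgeR adjusted p from 0.0559 without HCT116 1R to 0.107 without HCT116 1L. Sinusoidal endothelial and Kupffer cell markers moved with the same label, summing to 381 to 433 and 506 to 623 CPM in libraries labelled male and 230 to 316 and 221 to 437 CPM in those labelled female. Of 12 endothelial markers 4 were higher under the male label by an adjusted p of 0.05 (Pecam1, Stab2, Stab1 and Cdh5), of 12 Kupffer markers 1 (C1qa), and of 10 hepatocyte genes Alb and Ahsg. Their part in the Ecm1 value was not tested. Between the lines Ecm1 was -0.12 (95% interval -0.34 to 0.10, edgeR adjusted p = 0.505).

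Promoters are printed for Reln and Des, whose libraries separated by line, and for Lrat and Col3a1, whose libraries did not. Each 300-base sequence runs 5′ to 3′ across the annotated start (RefSeq, GRCm38.p6), and capitals mark GGGCGG (the GC box bound by SP1), CCAAT and TATAAA, searched on both strands. The Reln window lies at chr5:22344656-22344955 on the minus strand, that of Des at chr1:75360042-75360341 on the plus strand, that of Lrat at chr3:82903925-82904224 on the minus strand and that of Col3a1 at chr1:45311288-45311587 on the plus strand.
Reln: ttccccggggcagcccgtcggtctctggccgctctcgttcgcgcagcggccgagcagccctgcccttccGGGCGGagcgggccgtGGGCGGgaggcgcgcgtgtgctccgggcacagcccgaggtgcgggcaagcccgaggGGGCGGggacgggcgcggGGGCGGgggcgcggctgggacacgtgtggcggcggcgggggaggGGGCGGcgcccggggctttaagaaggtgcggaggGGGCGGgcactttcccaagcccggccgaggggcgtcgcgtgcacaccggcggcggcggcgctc
Des: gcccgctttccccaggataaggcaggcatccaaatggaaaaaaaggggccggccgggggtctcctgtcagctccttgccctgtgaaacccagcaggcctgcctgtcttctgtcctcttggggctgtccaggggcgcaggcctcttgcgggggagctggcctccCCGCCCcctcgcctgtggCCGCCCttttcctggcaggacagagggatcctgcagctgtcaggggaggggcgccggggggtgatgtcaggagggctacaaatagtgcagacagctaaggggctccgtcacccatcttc
Lrat: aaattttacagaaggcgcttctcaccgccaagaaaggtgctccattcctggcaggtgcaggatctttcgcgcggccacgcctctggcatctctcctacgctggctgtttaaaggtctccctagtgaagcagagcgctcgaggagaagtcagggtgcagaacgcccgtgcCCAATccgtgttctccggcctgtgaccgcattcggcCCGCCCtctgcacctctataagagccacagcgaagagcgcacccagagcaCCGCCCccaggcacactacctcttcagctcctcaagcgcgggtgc
Col3a1: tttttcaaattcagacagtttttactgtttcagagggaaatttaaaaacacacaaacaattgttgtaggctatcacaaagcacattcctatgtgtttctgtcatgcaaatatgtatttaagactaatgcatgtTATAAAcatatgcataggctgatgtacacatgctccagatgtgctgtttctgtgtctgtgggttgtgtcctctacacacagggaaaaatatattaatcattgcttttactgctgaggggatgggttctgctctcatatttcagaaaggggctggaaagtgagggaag
The Reln window held 6 GC boxes and 47 CpG, more CpG than 98.6% of the 32851 promoters in the table. The windows of Des and Lrat held 2 GC boxes each, with 11 and 21 CpG, and Lrat held 1 CCAAT. The Col3a1 window held 1 TATAAA, 0 GC boxes and 0 CpG. At least 1 GC box was present in 35.7% of all promoters, CCAAT in 37.4% and TATAAA in 13.6%. These matches describe the letters in the window and carry no evidence of binding. Of the 10 genes 7 have a promoter in the table, and Pdgfrb, Col1a1 and Dcn do not. Windows not printed are those of Col1a2, Ecm1 and Timp1, whose libraries also overlapped. Col1a2 held 2 GC boxes, as Des did, with 13 CpG and 2 CCAAT. Ecm1 held 1 GC box, 2 CpG and 1 TATAAA, and Timp1 held 1 GC box, 8 CpG and 1 CCAAT.

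Fibrillar collagen transcripts were low in all libraries, and the 3 genes overlapped between the lines. Col1a1, on chromosome 11 from 94936224 to 94953042, stood at 4.91, 4.84, 5.85 and 2.04 CPM in hosts of Colo201 and at 2.51, 2.40, 4.435 and 3.70 CPM in hosts of HCT116. Of the 4 Colo201 libraries 3 lay above every HCT116 library, and Colo201 4R was the lowest of all 8. The log2 fold change was 0.47 (SE 0.34, 95% interval -0.31 to 1.26, edgeR adjusted p = 0.476), and over the libraries left out in turn it ran from 0.27 without Colo201 4L (edgeR adjusted p = 0.794) to 0.81 without Colo201 4R (edgeR adjusted p = 0.0556). In libraries labelled male it was 0.99 (95% interval -0.03 to 2.01), in those labelled female -0.04 (95% interval -1.05 to 0.96). The difference between these was -1.03 (95% interval -2.47 to 0.40, edgeR adjusted p = 1).

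Col1a2, on chromosome 6 from 4504814 to 4541544, held 7.74, 8.76, 8.31 and 6.999 CPM in the Colo201 libraries and 5.93, 7.71, 9.78 and 6.26 CPM in those of HCT116. The Colo201 values lay inside the HCT116 range, and the log2 fold change was 0.10 (95% interval -0.31 to 0.51, edgeR adjusted p = 0.791). Col3a1, on chromosome 1 from 45311538 to 45349706, held 19.9, 17.8, 19.1 and 15.4 CPM against 20, 15.04, 25.8 and 12.95 CPM. Both the highest and the lowest value came from hosts of HCT116 labelled female. Its log2 fold change was -0.03 (95% interval -0.52 to 0.45, edgeR adjusted p = 0.950). Type I collagen is built of more Col1a1 than Col1a2 chains. In these livers the ratio of Col1a1 to Col1a2 in FPKM, which depends on the length taken for each gene, was 0.549 to 1.33 in hosts of Colo201 and 0.586 to 1.14 in hosts of HCT116. In Colo201 2L, 2R and 4L the ratio lay above 1, at 1.23, 1.05 and 1.33, and in Colo201 4R it was 0.549.

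Dcn, on chromosome 10 from 97479609 to 97518143, went the other way from Reln and Des. It stood at 107.8, 92.9, 85.3 and 92.3 CPM in the Colo201 libraries and at 126.3, 137, 132.8 and 96.2 CPM in those of HCT116. HCT116 3R fell among the Colo201 values, and the other 3 HCT116 libraries lay above all of them. The log2 fold change was -0.38 (SE 0.11, 95% interval -0.64 to -0.12) and missed the threshold (edgeR adjusted p = 0.0979). It was -0.39 in libraries labelled male and -0.37 in those labelled female. DESeq2 called it lower (adjusted p = 0.0231).

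Timp1 was almost silent. The estimated counts were 0, 6, 4 and 0 for hosts of Colo201 and 3, 8, 27 and 0 for hosts of HCT116. HCT116 3L alone, at 0.410 CPM, rose above the level that 3 fragments give, 0.178 to 0.203 CPM over the libraries when a fragment is taken as 4 counts, a limit for counting error only. Timp1 did not pass the filter on low counts and was not tested. It lies on the X chromosome from 20870166 to 20874735, inside the Syn1 gene on the opposite strand.

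Per length, in FPKM over all 8 libraries, Ecm1 was the most abundant of the 10 at 38.2 ± 7.73 (SD, n = 8), followed by Dcn at 17.1 ± 3.55. Within a gene the ratio of count to FPKM hardly varied (median SD 0.000516 on the log2 scale), so FPKM took 1 length per gene. All annotated exons come to 23738 bases for Reln, 5351 for Lrat, 6563 for Col1a1 and 12426 for Col1a2. Per kilobase of these exons the 10 genes held the same order. Which transcripts were expressed was not measured, so the order holds for this unit only. Reln at 3.08 ± 1.06 and Lrat at 2.95 ± 0.573 did not differ beyond their spread. Reln was above Lrat in 3 of 4 Colo201 libraries and in 1 of 4 of HCT116. Col3a1 at 1.70 ± 0.396 was below Lrat in all 8 libraries. Pdgfrb at 1.01 ± 0.242 and Des at 0.889 ± 0.212 changed places in 2 libraries, both of Colo201. Col1a2 at 0.562 ± 0.105 and Col1a1 at 0.530 ± 0.191 could not be ordered, with Col1a2 above in 4 of 8 libraries. Timp1 came last in every library, at 0 to 0.43 FPKM.

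**Figure D3:**
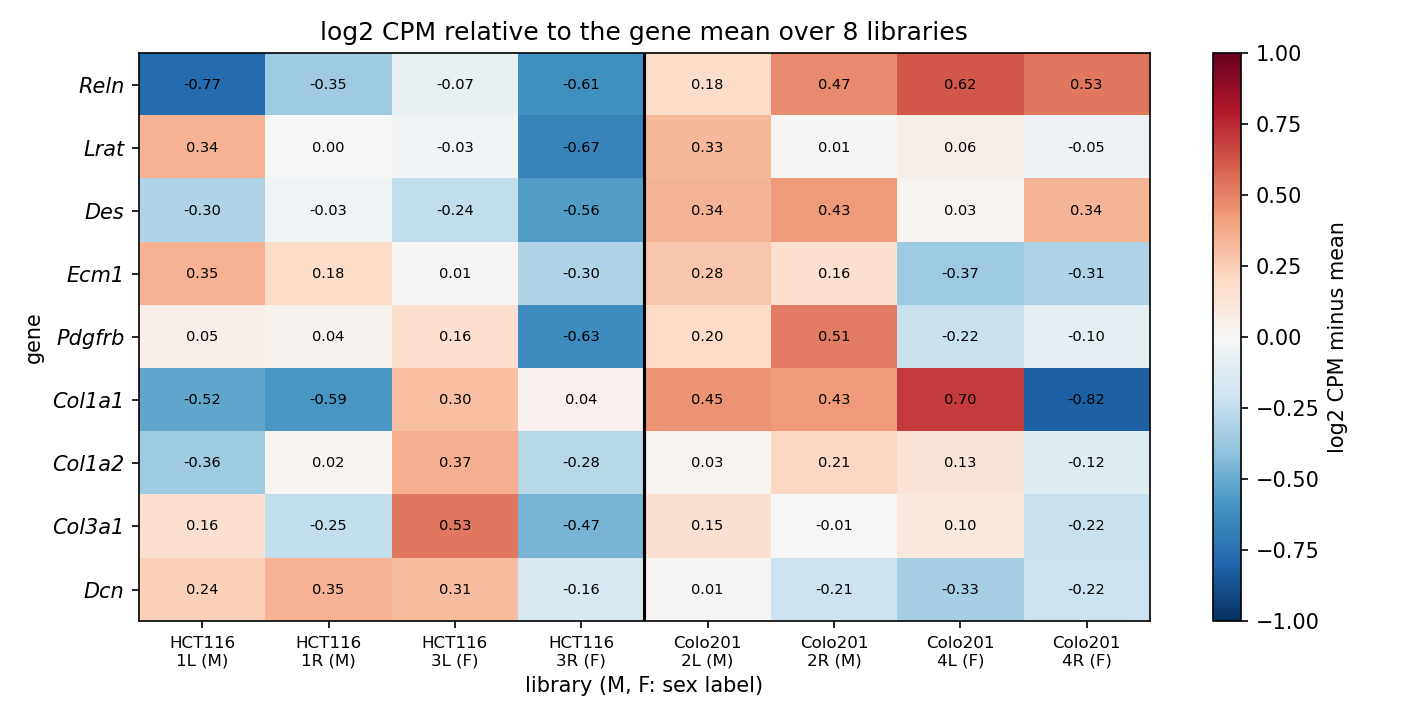
Log2 CPM of the 9 tested genes in each library minus the gene's mean over the 8 libraries, as colour and number, with the black line between HCT116 (left) and Colo201 (right). The Reln row is negative in all 4 HCT116 and positive in all 4 Colo201 libraries, and the HCT116 3R column is negative for every gene but Col1a1, which stands at 0.04.

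Single libraries stood out for several of the genes at once. HCT116 3R held the lowest value of 4 of the 9 tested genes, Lrat, Des, Pdgfrb and Col3a1, at -0.67, -0.56, -0.63 and -0.47 from each gene's mean on the log2 scale. It was also the lowest library for the summed level of 22 other stellate markers, at 316 CPM against 388 to 500 CPM in the other 7. The low level was not particular to stellate genes. HCT116 3R was also lowest for the sums of other collagens and matrix genes (2088 CPM) and of hepatocyte genes (131400 CPM, with HCT116 3L at 131900 CPM). It was not lowest for the sums of retinoid genes or of reelin receptors and partners. As a measure of likeness, the SD over the 8 libraries of the log2 ratio of CPM (plus 0.1) between genes was smallest for Ecm1 with Dcn (0.228), Ecm1 with Pdgfrb (0.244) and Lrat with Ecm1 (0.25). Among the collagens it was smallest for Col1a2 with Col3a1 (0.259).

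The genes most like Reln by this measure, among 12735 with at least 1 CPM on average, were Cnp (0.172), Fut10 (0.186), Vstm4 (0.187), Stra6l (0.189) and Gm5873 (0.195), where the median gene had 0.598. The likeness was sought over the same libraries that showed the difference in Reln, so their own differences between the lines (log2 fold changes of 0.63 to 0.84) are a description. The genes most like Col1a1 were Rai14 (0.252), Nfkbie (0.267), Gm5855 (0.294), Rabep1 (0.296) and Rps15a-ps6 (0.297), against a median of 0.616.

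Of 22 further stellate cell markers 1 rose, Sod3, the extracellular superoxide dismutase, by 0.60 (SE 0.11, edgeR adjusted p = 0.0273), from 39.2 ± 6.86 to 59.5 ± 12.6 CPM (SD, n = 4 each). Its libraries overlapped, at 44.5 to 75.2 CPM in hosts of Colo201 and 31.9 to 47.4 CPM in hosts of HCT116. The share called in this list was 4.5%, near the 4.78% of all tested genes, and the list's median log2 fold change was 0.02. Hgf, the hepatocyte growth factor that stellate cells secrete, stood at 1.36 to 3.17 CPM in hosts of Colo201 and 3.77 to 6.34 CPM in hosts of HCT116. The libraries did not overlap, as for 12.3% of all tested genes, and Hgf missed the threshold (-1.12, SE 0.29, edgeR adjusted p = 0.0664). Of the 8 fits that left out 1 library, Hgf passed in 1, without Colo201 4R (-1.42, edgeR adjusted p = 0.0372), with adjusted p up to 0.189 in the others.

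Most contractile genes had positive values without passing. Of 11 tested myofibroblast and contractile genes 1 rose, the myosin light chain Myl9, by 1.29 (SE 0.27, edgeR adjusted p = 0.0378), to 2.88 ± 0.543 from 1.18 ± 0.327 CPM. The share called was 9.1%, beside 4.78% of all tested genes. The list's median was 1.29, with 10 of 11 above 0 and 8 at an unadjusted p under 0.05 by edgeR, where 21.7% of all tested genes reached that p and their median was 0.00215. Acta2, the actin that marks activated stellate cells and smooth muscle, held 1.71, 1.40, 2.72 and 3.39 CPM in the Colo201 libraries and 0.194, 1.11, 0.349 and 1.03 CPM in those of HCT116. Its libraries separated, as those of 12.3% of all tested genes did, and it did not pass (1.70, edgeR adjusted p = 0.118). Postn, a matricellular protein of fibroblasts, stood below in hosts of Colo201 without passing (-0.78, edgeR adjusted p = 0.0763).

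The vascular smooth muscle list, which shares 5 genes with the contractile list, had 8 of 8 genes above 0, 5 at an unadjusted p under 0.05 by edgeR (21.7% of all tested genes) and 0 that passed (4.78% of all tested genes). Its summed level was 13.3 to 18.9 CPM in hosts of Colo201 and 6.91 to 10.2 CPM in hosts of HCT116. Myh11, a smooth muscle myosin that quiescent stellate cells lack, stood at 0.814 to 2.59 against 0.562 to 1.02 CPM (1.48, edgeR adjusted p = 0.0812). With each of the 8 libraries left out, Myh11 passed in 1 fit, without Colo201 4L (1.79, edgeR adjusted p = 0.0379), with adjusted p up to 0.207 in the others. Tagln stood at 2.83 to 5.77 against 1.82 to 2.39 CPM (0.95, edgeR adjusted p = 0.0958). These genes belong to vessel walls as well as to activated stellate cells, and their part in the Des and Acta2 values was not tested.

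Of 35 tested collagen and matrix genes outside the 10, 1 rose and 1 fell (5.7%, beside 4.78% of all tested genes), with a median log2 fold change of 0.24. Nid1, the basement membrane linker nidogen, rose by 1.27 (SE 0.18, edgeR adjusted p = 0.0111), at 31.2, 38.7, 30.9 and 23.7 CPM in the Colo201 libraries against 17.5, 16.5, 11.8 and 7.51 CPM in those of HCT116. Col27a1, a fibrillar collagen of cartilage, fell by 1.41 (SE 0.20, edgeR adjusted p = 0.0111), from 24.5 ± 9.53 to 8.80 ± 2.45 CPM. Both calls held when each of the 8 libraries was left out in turn, and both were lost when L and R of each title number were summed (edgeR adjusted p = 0.115 for Nid1 and 0.116 for Col27a1). The type IV collagen chains Col4a1 and Col4a2, which lie in basement membranes with nidogen and were named after their values were seen, stood at 33.6 and 36.2 CPM on average in hosts of Colo201 and 23.0 and 23.5 CPM in hosts of HCT116. Neither passed (edgeR adjusted p = 0.0712 and 0.0604).

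Of 22 tested genes of collagen processing and cross-linking 1 fell, P4ha2, a subunit of prolyl hydroxylase, by 0.76 (SE 0.14, edgeR adjusted p = 0.0267), and the list's median was 0.12. That share, 4.5%, was near the 4.78% of all tested genes. Loxl1, a cross-linking oxidase, stood at 0.401 to 1.49 CPM in hosts of Colo201 and 0 to 0.365 CPM in hosts of HCT116 without passing (edgeR adjusted p = 0.133). Among 18 tested matrix proteases and inhibitors the membrane-bound metalloproteinases Mmp14 and Mmp15 rose, by 0.43 (SE 0.09, edgeR adjusted p = 0.0378) and 1.19 (SE 0.20, edgeR adjusted p = 0.0209), and the median was 0.14. These were 11.1% of the list, beside 4.78% of all tested genes. Mmp15 ran from 47.0 to 166 CPM in hosts of Colo201 and from 35.1 to 53.8 CPM in hosts of HCT116, so the libraries overlapped. It was also lower under the male label (-0.89, edgeR adjusted p = 0.0485), where 4.02% of all tested genes passed between the labels. In hosts of Colo201 it held 77.6 and 47.0 CPM under the male label and 166 and 129 CPM under the female label. Of 25 tested genes of TGF-beta and PDGF signalling none passed in edgeR (4.78% of all tested genes did). At an unadjusted p under 0.05 edgeR counted 4 (21.7% of all tested genes), and the median was 0.18. The nearest was Pdgfa, which encodes the A chain of PDGF (0.90, edgeR adjusted p = 0.0514), followed by Smad6 (0.46, edgeR adjusted p = 0.0661). With each of the 8 libraries left out, Pdgfa passed in 1 fit, without HCT116 1R (1.14, edgeR adjusted p = 0.0288). In the others its edgeR adjusted p ran up to 0.16. Pdgfa was also lower under the male label (-1.55, edgeR adjusted p = 0.00652).

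Of 27 tested retinoid genes 3 rose, 2 fell and 22 did not pass, where 2.48% of all tested genes rose and 2.3% fell, and the list's median was 0.14. Stra6l, a membrane receptor for the retinol carrier RBP4, rose by 0.70 (SE 0.09, edgeR adjusted p = 0.00749), at 153, 143, 161 and 168 CPM against 85.2, 99.5, 107.5 and 92.1 CPM. Dhrs3, which reduces retinal to retinol, rose by 0.68 (SE 0.12, edgeR adjusted p = 0.0237), and Bco1, which cleaves beta-carotene to retinal, by 0.97 (SE 0.17, edgeR adjusted p = 0.0219). Ces1d, a carboxylesterase of hepatocytes, fell by 1.40 (SE 0.10, edgeR adjusted p = 0.000845), from 1138 ± 294 to 435.5 ± 129 CPM. Aldh1a1, which oxidises retinal to retinoic acid, fell by 0.63 (SE 0.11, edgeR adjusted p = 0.0199). Between the sex labels Aldh1a1 was lower under the male label (-1.14, edgeR adjusted p = 0.000757) and Ces1d higher (0.66, edgeR adjusted p = 0.00846). Stra6l, Bco1 and Ces1d separated by line in all libraries, as did Dhrs3, and Aldh1a1 overlapped. Such separation held for 12.3% of all tested genes. Reads of Ces1d may have been divided with its closely related Ces1 neighbours in the counting, so its value is uncertain.

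Among 12 tested reelin receptors and partners 2 rose (16.7%, beside 4.78% of all tested genes), and the median was -0.01. Their summed level was lower in every Colo201 library, at 381 to 419 CPM, than in every HCT116 library, at 434 to 466 CPM. Itga3, the integrin chain reported to bind reelin in brain, rose by 0.82 (SE 0.12, edgeR adjusted p = 0.0127), from 6.73 ± 0.525 to 11.9 ± 1.27 CPM. Src, a kinase of the family that phosphorylates the reelin adaptor Dab1, rose by 0.82 (SE 0.18, edgeR adjusted p = 0.0439), from 5.89 ± 1.59 to 10.2 ± 0.991 CPM. For both genes every Colo201 library lay above every HCT116 library, as for 6.27% of all tested genes.

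Of the 21 list genes outside the 10 that passed, those of the marker lists below included, 4 kept the call when each library was left out in turn: Col27a1, Nid1, Stra6l and Ces1d. The other 17 lost it without at least 1 library, 16 without HCT116 1R, 15 without HCT116 3L, 13 without HCT116 1L and 12 without Colo201 4L. Leaving out Colo201 2L, HCT116 3R, Colo201 2R or Colo201 4R lost 11, 10, 7 and 4. Myl9, Src, Dpt and Vwf lost it without each of the 8. Mmp14 kept it in 1 of 8 fits, Sod3, P4ha2, Dhrs3 and Trf in 2, and Mmp15 and Ahsg in 3. The 16 lost without HCT116 1R were Sod3, Myl9, P4ha2, Mmp14, Mmp15, Dhrs3, Aldh1a1, Src, Itga3, Dpt, Krt23, Vwf, Apoa1, Trf, Ahsg and Cela1. Bco1 lost it without Colo201 2L, Colo201 4L, HCT116 1L or HCT116 3L. Over the left-out libraries the edgeR adjusted p of these 17 ran no higher than 0.136, and all kept their direction. When L and R of each title number were summed, which leaves 1 residual degree of freedom, 0 of the 21 passed in edgeR, with adjusted p from 0.0838 (Ces1d) to 0.174 (Src), and all 21 kept their direction.

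**Figure D4:**
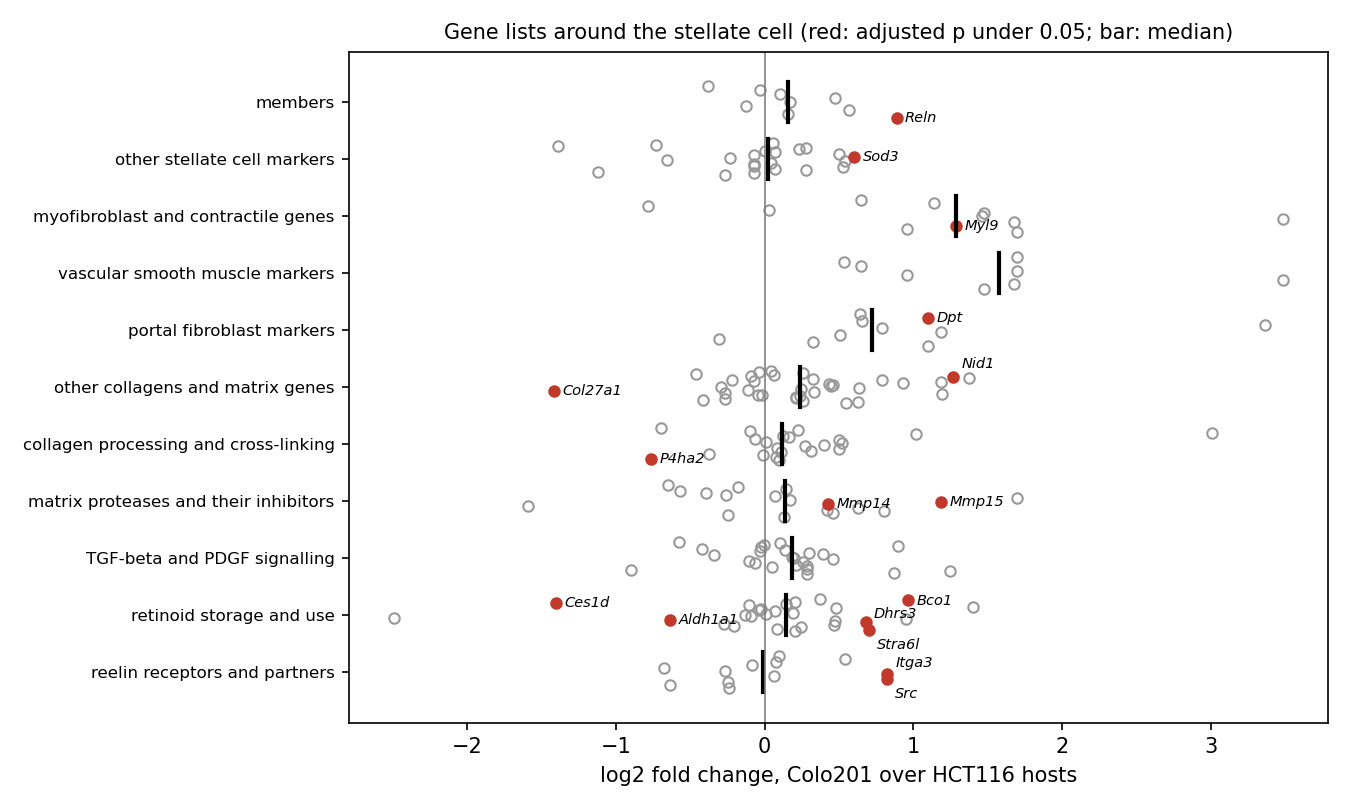
Log2 fold change of every tested gene of the 10 and of 10 related lists, Colo201 over HCT116 hosts, with red filled points for an adjusted p under 0.05 and a black bar at each list's median. The medians of most lists lie near 0. Those of the portal fibroblast (0.72), contractile (1.29) and vascular smooth muscle (1.57) lists lie to the right, with 1, 1 and 0 called genes.

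Markers of other cells were read beside these results. Beside the counts in these lists, 4.78% of all tested genes passed between the lines, and 21.7% had an unadjusted p under 0.05 in edgeR. Of 10 portal fibroblast markers 1 rose, the matrix protein Dpt (1.10, SE 0.25, edgeR adjusted p = 0.0477), and their summed level was 46.6 to 69.5 CPM in hosts of Colo201 and 48.7 to 92.2 CPM in hosts of HCT116. The median of that list was 0.72. Of 8 mesothelial markers 0 passed in edgeR, also at an unadjusted p under 0.05, where the count was 0, and their sum was 3.96 to 29.5 against 2.60 to 5.26 CPM, the highest value being that of Krt19 in Colo201 4R. Of 10 cholangiocyte markers Krt23 rose (4.13, edgeR adjusted p = 0.0169), with a sum of 51.1 to 103 against 44.7 to 53.2 CPM. Of 12 endothelial markers Vwf rose (0.82, edgeR adjusted p = 0.0477), with a sum of 230 to 420 against 276 to 433 CPM. None of 12 Kupffer cell markers passed (221 to 623 against 367 to 557 CPM), nor any of 6 tested neutrophil and lymphocyte markers (4.67 to 12.1 against 5.82 to 12.3 CPM), and at an unadjusted p under 0.05 edgeR counted 0 in each of these lists. Apoa1, Trf and Ahsg rose among 10 hepatocyte genes, and Cela1 among 3 tested adipocyte and pancreatic genes. In the remaining lists edgeR counted more at an unadjusted p under 0.05. These were 3 portal fibroblast, 3 cholangiocyte, 2 endothelial, 5 hepatocyte and 2 adipocyte and pancreatic genes. The median log2 fold change was 0.925 for cholangiocyte, 0.129 for hepatocyte, 0.00561 for endothelial and -0.0318 for Kupffer cell markers. Adipoq, which defines adipocytes, was at 0 in all 4 HCT116 libraries and at most 0.135 CPM in those of Colo201. The part of these cells in the Reln and Dcn values was not tested.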

How the data were processed

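Polyadenylated RNA of mouse liver was sequenced as 8 stranded TruSeq libraries, per the labels' protocols. HISAT2, StringTie and GRCm38 (mm10) are named in the submitters' processing notes; the sources used here give no versions, annotation or strand setting. The deposited estimated counts are whole numbers per gene, and 43.9 to 45.0% of values from 1 to 16 were multiples of 4, so 1 unit is not 1 read. The deposited FPKM table served for levels per length and for alternatives. Symbols came from GENCODE vM21 and matched 55141 of 55401 identifiers; those without held 0.0216 to 0.0343% of counts.

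Counts were scaled by TMM, filtered by filterByExpr on the 4 combinations of line and sex label, and compared by the quasi-likelihood test of edgeR 4.0.16 (R 4.3.3), two-sided, with sex label (or line) as covariate and Benjamini-Hochberg adjustment over all genes (threshold 0.05). Contrasts within labels and the interaction came from a fit with 4 means. Standard errors and 95% intervals were derived from each F statistic. The genes and lists were chosen with earlier results of these data known. Named were the 10 genes, each list's passing genes (or its 2 smallest p where fewer than 2 passed), the 5 genes most like Reln and Col1a1, and defining markers of other cells; further names are marked where they occur. Alternatives were other scalings and filters, counts divided by 4, DESeq2 1.42.0, limma 3.58.1 (voom, or log2 FPKM plus 1 or 0.1), no covariate, summed title numbers, other thresholds, the 20 most abundant genes left out, and each library left out. The lines have no title number in common, so none can pair libraries across them; after the data were seen, limma voom with the title number as a random block was added.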

Additional observations from a re-analysis of the deposited data

Results flagged for a closer look

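Within each line, the level of each of the 10 genes and the summed level of each of 17 other lists were searched for a library far from the other 3. Of 54 groups 1 was marked, where chance marks about 1 in 20. The summed level of mesothelial markers reached 29.5 CPM in Colo201 4R against 3.96 to 4.81 CPM in the other Colo201 libraries. Krt19, which cholangiocytes also express, held 25.9 CPM of it, while Msln and Upk3b stood at 0.421 and 0.956 CPM there, inside the range of the other libraries. Colo201 4R also held the lowest Col1a1 of all 8 libraries, 2.04 CPM. Reln was 109.5 CPM there, within the range of the other Colo201 libraries.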

How the results depend on the processing

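The number of genes that differed between the lines, 845, moved with the test: 1993 by DESeq2, 256 by limma on log2(FPKM + 0.1), 155 with no covariate, 3 with libraries of 1 title number summed (0 higher, 3 lower), 1697 at an adjusted p under 0.1 and 92 at 0.01. Without single libraries it ran from 175 (without HCT116 3L) to 550 (without Colo201 4R). Of the 10 genes, Reln alone passed; DESeq2 and an adjusted p under 0.1 each called 3 (Reln, Des and Dcn), and 0 passed with limma on log2(FPKM + 0.1), on log2(FPKM + 1) with no filter, with summed title numbers or at an adjusted p under 0.01. Without single libraries the count was 0 to 1, and that between sex labels, with Ecm1, also 0 to 1. The log2 fold change of Col3a1 was 0.006983 with limma voom, 0.008441 with the random block and -0.1787 to 0.2263 without single libraries, and that of Col1a2 -0.002438 to 0.2799. The causes were not tested. Reln kept its direction in all alternatives run, at 0.638 to 1.001. With the title number as a random block, chosen after seeing the data, limma voom called 3795 genes and 3 of the 10 (Reln, Des and Dcn). The correlation within title numbers was estimated at -0.383 from 4 numbers, with 1 degree of freedom between them, and nothing is read from these larger counts. No paired analysis was possible because no title number occurs in both lines, which concerns pairing across the lines only. Depth limits what can be said of Timp1, which lay near 0.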
